A study of Mus musculus with 36 samples.

Results

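The expression of 29 genes of enteric neurons and glia was examined in mouse colon, among 19938 genes that the platform annotation pairs with at least 1 probe set of their own. Each gene was taken from a list of neuron and glia genes and measured by a probe set annotated to it alone, and where a gene had several, by the one with the highest mean over the 36 arrays. All 29 had such a probe set. They were ordered by role into 18 neuronal genes, 4 receptors for ligands of the glial cell line-derived neurotrophic factor (GDNF) family, 3 glial genes, and 4 genes shared by neurons, glia, their precursors or muscle. Each array held the total RNA of 1 animal's colon. The groups were 6 mice given an siRNA against Tnf, which encodes the inflammatory cytokine tumour necrosis factor (siTNF), 6 given such an siRNA with O-methyl nucleotides (siTNF-OMe), 8 given one that carries O-methyl-propanediol (siTNF-OMe-P), 7 given a scrambled siRNA, and 9 labelled Control. The siRNAs were given intrarectally, and the sources used here do not give doses or the strain, sex and age of the mice. Every animal, those of Control included, is labelled as treated with 5% DSS (dextran sulfate sodium), which damages the lining of the large bowel. The design text speaks of DSS only beside the dosed groups, so the treatment of Control is unsettled and its label serves as a name. Colon length was 5.2 to 7.1 in the dosed mice and 7.2 to 8.1 in Control; the labels give these values in millimetres, which is too short for a mouse colon, so the unit is in doubt. The activity of myeloperoxidase (MPO), a neutrophil enzyme, was 0.031 to 1.35 U/mg in the dosed mice and 0.009 to 0.088 U/mg in Control.

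Neurons of the gut wall lie in ganglia between the muscle layers and under the mucosa. They drive peristalsis, blood flow and secretion through transmitters such as acetylcholine, nitric oxide and neuropeptides, and enteric glia surround them. Both descend from the neural crest, whose cells colonise the gut through GDNF acting on the receptor Ret and endothelin 3 acting on the receptor Ednrb. The deposited values are log2 signals per probe set, so a log2 difference of 1 is a doubling. Levels of different genes are set against each other only as differences within an array. Of these differences the shift between groups is compared, and they do not show which gene has more RNA. In whole tissue, fewer cells of a type and less RNA per cell cannot be told apart, and the share of muscle, mucosa and ganglia in each piece was not measured.

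Promoters are shown for 5 of the genes that differed between the siRNA-dosed mice and Control. They are the glial gene Gfap and the neuronal genes Prph, Tubb3 and Cartpt, which rose, and L1cam, which fell. Each holds a match to a motif searched. The promoter of Uchl1, which had the largest difference, holds none and is not shown. A further L1cam promoter (chrX:73880785-73881084), which holds GC boxes, is not shown either. The sequences come from RefSeq (GRCm38.p6) and run 5′ to 3′ from 250 bases before to 50 bases after the start of transcription. Capitals mark matches to the motifs described after them.
Gfap promoter, chr11:102897151-102897450, minus strand: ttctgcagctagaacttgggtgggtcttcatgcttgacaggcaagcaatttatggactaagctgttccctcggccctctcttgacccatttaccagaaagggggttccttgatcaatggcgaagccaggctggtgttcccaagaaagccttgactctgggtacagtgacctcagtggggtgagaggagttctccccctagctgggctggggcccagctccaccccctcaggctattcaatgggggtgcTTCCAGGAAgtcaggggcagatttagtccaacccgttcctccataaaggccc
Prph promoter, chr15:99054924-99055223, plus strand: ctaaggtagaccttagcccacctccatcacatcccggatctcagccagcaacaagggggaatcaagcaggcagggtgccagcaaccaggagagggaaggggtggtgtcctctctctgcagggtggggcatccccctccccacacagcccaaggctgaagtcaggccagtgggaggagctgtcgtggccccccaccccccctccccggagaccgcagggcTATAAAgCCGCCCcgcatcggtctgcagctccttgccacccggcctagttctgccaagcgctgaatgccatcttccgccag
Tubb3 promoter, chr8:123411303-123411602, plus strand: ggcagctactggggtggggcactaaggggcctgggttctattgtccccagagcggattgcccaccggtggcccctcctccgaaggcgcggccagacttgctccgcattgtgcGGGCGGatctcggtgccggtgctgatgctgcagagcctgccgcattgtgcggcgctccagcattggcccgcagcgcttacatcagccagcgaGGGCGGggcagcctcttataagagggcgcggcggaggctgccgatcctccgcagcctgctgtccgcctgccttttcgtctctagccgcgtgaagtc
Cartpt promoter, chr13:99900634-99900933, minus strand: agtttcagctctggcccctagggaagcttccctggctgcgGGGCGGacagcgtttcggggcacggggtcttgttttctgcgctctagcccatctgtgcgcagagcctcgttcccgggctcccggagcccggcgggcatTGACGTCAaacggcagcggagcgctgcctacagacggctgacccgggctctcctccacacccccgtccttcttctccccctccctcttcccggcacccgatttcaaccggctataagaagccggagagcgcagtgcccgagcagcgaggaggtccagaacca
L1cam promoter, chrX:73880741-73881040, minus strand: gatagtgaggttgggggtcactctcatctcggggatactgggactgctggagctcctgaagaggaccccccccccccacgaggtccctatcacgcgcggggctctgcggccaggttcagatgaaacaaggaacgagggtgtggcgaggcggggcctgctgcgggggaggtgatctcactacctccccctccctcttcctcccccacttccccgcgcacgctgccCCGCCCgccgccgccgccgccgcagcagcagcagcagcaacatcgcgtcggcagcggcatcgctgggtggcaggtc
The table of promoters held 18 of the 29 genes, with 23 promoters, among 32851 promoters in all, and both strands were searched. The STAT motif TTCCNGGAA was in the promoter of Gfap and in 1.15% of all promoters, and the cyclic AMP response element TGACGTCA was in that of Cartpt and in 1.79% of all. The GC box GGGCGG was in 10 of the 23 promoters, which belong to 9 of the genes, and in 35.7% of all promoters. Read as CCGCCC where it lies on the other strand, it makes up the other capitals in Prph, Tubb3, Cartpt and L1cam. The exception is the TATA box TATAAA of Prph, a motif in 2 of the 23 and in 13.6% of all promoters. The AP-1 motif TGACTCA (5.20% of all promoters), the NF-kB consensus motif (0.155%) and both parts of the RE1 element that REST binds, TTCAGCACC (0.371%) and GGACAGCGC (0.405%), were in none of the 23. These matches describe letters only, and binding was not measured.

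Tnf, the gene the siRNAs target, had a median log2 signal of 9.17 in siTNF, 8.80 in siTNF-OMe, 8.70 in siTNF-OMe-P, 8.67 in scrambled and 7.91 in Control mice. Over scrambled its difference was 0.19 ± 0.16 in siTNF, -0.12 ± 0.16 in siTNF-OMe and -0.23 ± 0.15 in siTNF-OMe-P mice (SE, adjusted p of 1.00 each), so the array values do not by themselves bear out which mice received an siRNA against Tnf. Some arrays also stood apart. The SD of the values of an array ran from 1.55 to 1.89, although the summarisation named in the processing notes usually gives arrays the same spread. It lay under 1.7 on 8 arrays, which were siTNF replicate 3, siTNF-OMe-P replicates 2 and 8, scrambled replicate 5 and Control replicates 4, 5, 6 and 8. Scrambled replicate 2 had the highest value of its group for 22 of the 29 genes.

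The 29 genes were mostly higher in the siRNA-dosed mice than in Control. They were chosen with earlier results of these data known, so their counts do not speak for enteric nervous system genes as a class. Other genes of enteric neurons and glia are given further below. With the 4 dosed groups averaged, 21 of the 29 genes rose and 1, L1cam, fell, where 21.9% of all 28853 probe sets were called, 12.7% as higher and 9.16% as lower. The threshold was an adjusted p of 0.05 from limma, with Benjamini-Hochberg adjustment over all probe sets. The median log2 difference of the 29 genes was 0.29, against -0.04 over all probe sets. Of the 18 neuronal genes 13 rose and 1 fell (median 0.30), of the 4 GDNF family receptors 2 rose (median 0.16), of the 3 glial genes 2 rose (median 0.16), and all 4 shared genes rose (median 0.41). Without the 8 arrays of low SD 23 genes rose and L1cam fell, where 57.1% of all probe sets were called, and the median of the 29 genes was 0.23. With so many probe sets called there, passing in that fit, as Chat, Syt4, Elavl3 and Sox10 did, does not set a gene apart. In that fit 14 of the 18 neuronal genes rose and 1 fell (median 0.23), and 2 of the 4 GDNF family receptors (median 0.22), all 3 glial genes (median 0.22) and all 4 shared genes (median 0.36) rose. In 5 genes, Prph, Snap25, Nos1, Ret and Ednrb, all 27 dosed arrays lay above all 9 Control arrays, and in L1cam all 27 lay below them. Over all probe sets 1.15% separated upwards and 0.468% downwards in this way.

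**Figure D1:**
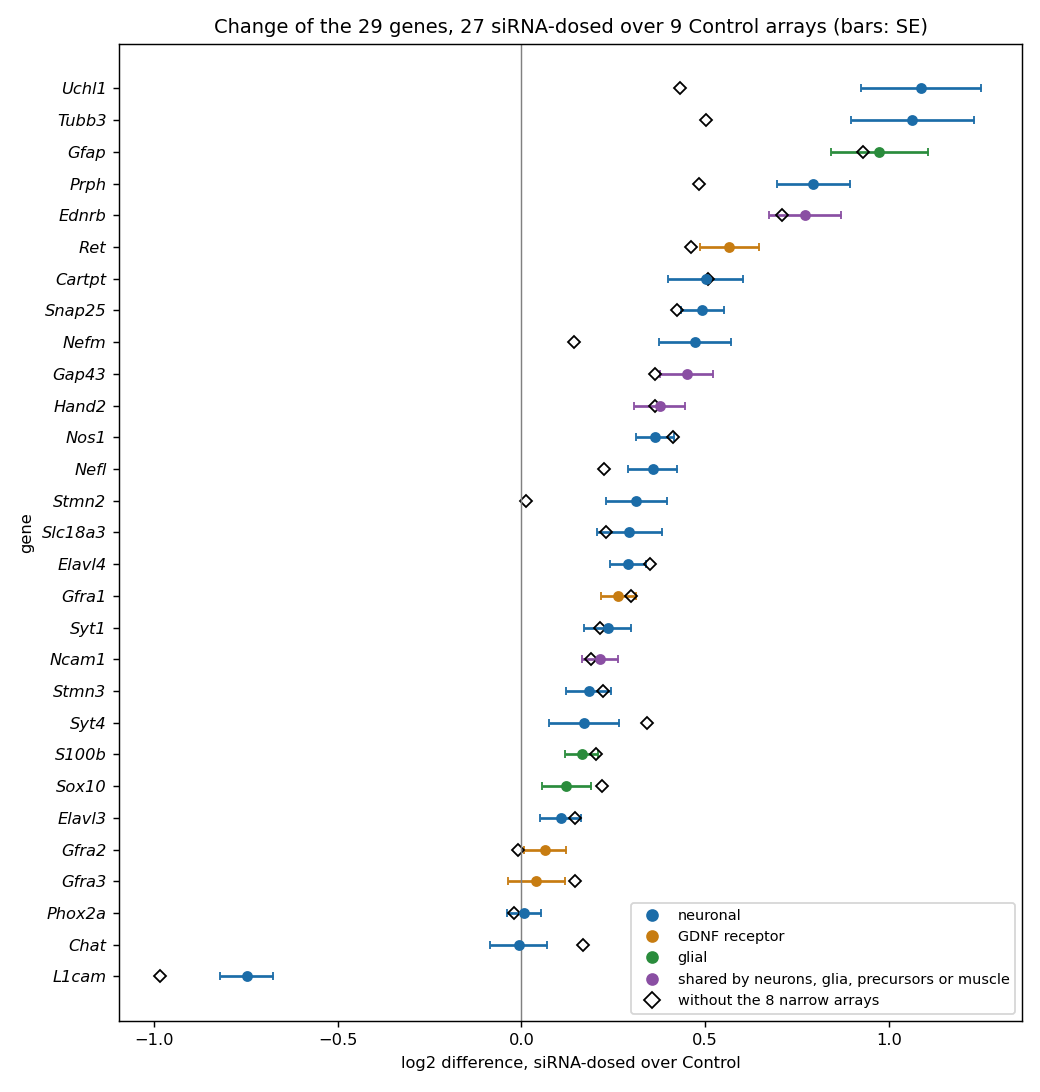
Log2 difference between the 27 siRNA-dosed and the 9 Control arrays for each of the 29 genes (filled points, with SE bars, coloured by role) and the same difference without the 8 arrays of low SD (open diamonds). Uchl1 and Tubb3 had the largest differences with all arrays, 1.09 and 1.06, and stood at 0.43 and 0.50 without the 8 arrays, while Gfap stood at 0.97 and 0.93 and L1cam was below 0 both times.

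Uchl1, Tubb3 and Prph had the highest differences among the neuronal genes with all arrays, and without the 8 arrays of low SD Cartpt (0.51) and Tubb3 (0.50) did. Uchl1, the ubiquitin hydrolase also known as PGP9.5 and abundant in neurons, ran from 10.36 through a median of 10.69 to 11.30 in the dosed mice, and from 8.34 through a median of 10.15 to 10.42 in Control. Its log2 difference was 1.09 ± 0.16 (SE, 27 against 9 arrays, adjusted p = 4.49e-06), and 25 of 27 dosed arrays lay above every Control array. Tubb3, the tubulin beta chain typical of neurons, ran from 10.23 through 10.68 to 11.44 in the dosed mice, and from 8.17 through 10.09 to 10.37 in Control, a difference of 1.06 ± 0.17 (adjusted p = 7.48e-06). Prph, peripherin, an intermediate filament of peripheral neurons, ran from 9.43 through 9.70 to 10.26 in the dosed mice, and from 8.25 through 9.07 to 9.33 in Control, a difference of 0.79 ± 0.10 (adjusted p = 1.57e-07). Of the neurofilament subunits, Nefm differed by 0.47 ± 0.10 (adjusted p = 0.000404) and Nefl by 0.36 ± 0.07 (adjusted p = 9.57e-05). The stathmins Stmn2 and Stmn3, which regulate microtubules in growing axons, differed by 0.31 ± 0.08 (adjusted p = 0.00536) and 0.18 ± 0.06 (adjusted p = 0.0311). The call of Stmn3 was lost when Control replicate 1, 2, 3, 5 or 6 was left out (0.16 to 0.18, adjusted p from 0.0522 to 0.0769).

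The size of these rises moved with the low-SD arrays. The 4 Control arrays of low SD had Uchl1 between 8.34 and 9.29, against 10.15 to 10.42 on the other 5 Control arrays, and Tubb3 between 8.17 and 9.47, against 10.09 to 10.37. Prph, Nefm and Stmn2 also separated these 4 Control arrays, as lower, from the other 5. Without the 8 arrays of low SD the difference was 0.43 for Uchl1 (adjusted p = 0.000484), 0.50 for Tubb3 (adjusted p = 0.00029) and 0.48 for Prph (adjusted p = 0.000119), while Nefm, at 0.14 (adjusted p = 0.155), and Stmn2, at 0.01 (adjusted p = 0.854), no longer passed. Nefl stood at 0.22 there (adjusted p = 0.00775). Snap25 stood at 0.42, Nos1 at 0.41, Ret at 0.46, Gfap at 0.93 and Ednrb at 0.71 in the same fit, and each still passed.

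**Figure D2:**
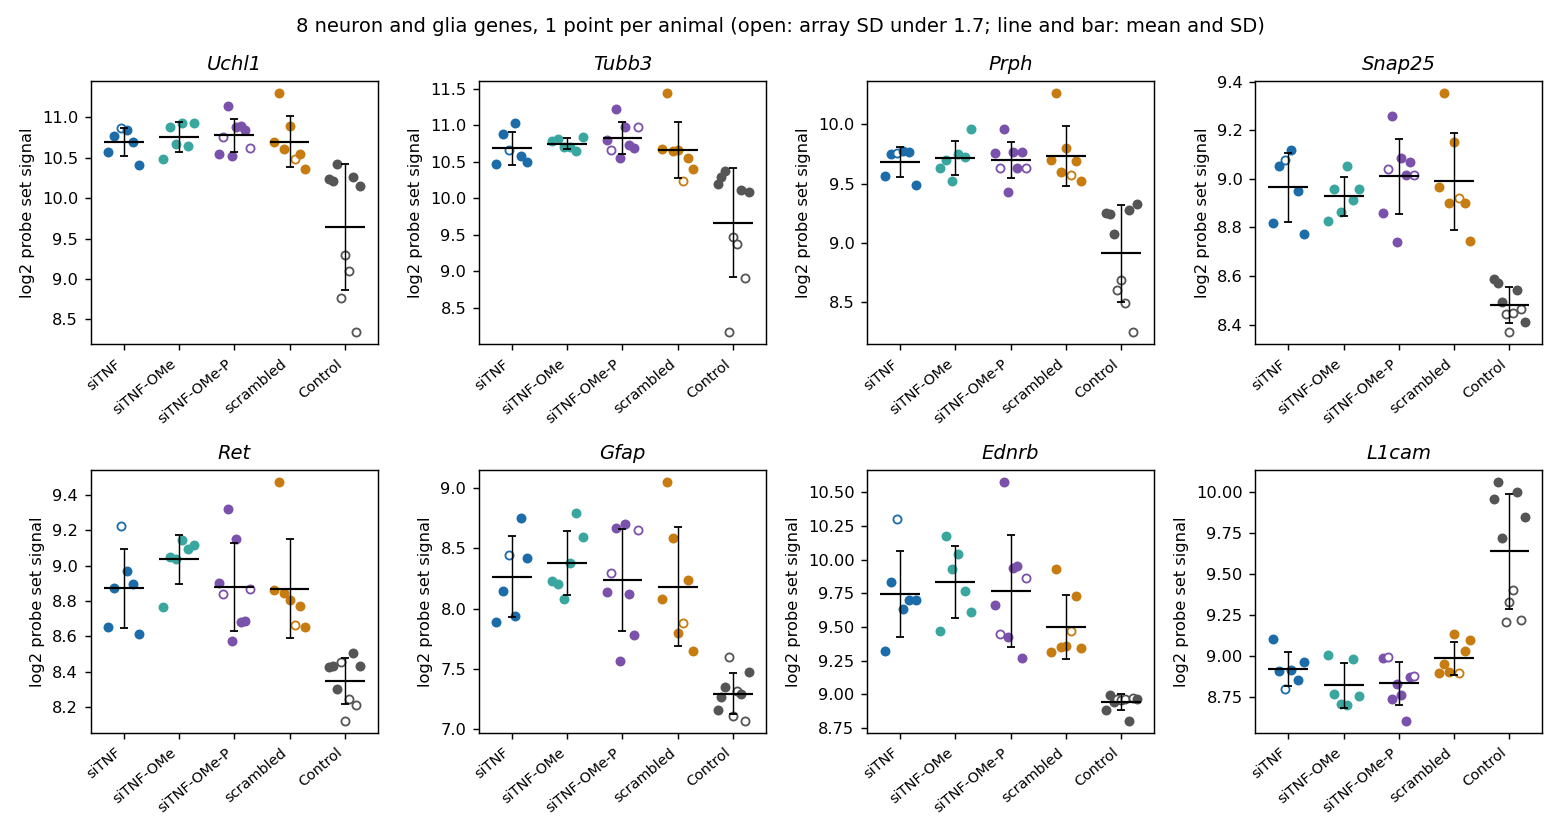
Log2 signal of 8 genes, 1 point per animal, in siTNF, siTNF-OMe, siTNF-OMe-P, scrambled and Control mice, with the mean and SD of each group and open points for arrays with an SD under 1.7. In Uchl1, Tubb3 and Prph the 4 open Control points lie below the other 5, whereas in Snap25, Gfap and Ednrb the Control points lie close together, with SDs of 0.07, 0.17 and 0.06.

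Genes of transmitter release and transmitter synthesis rose in part. Snap25, a membrane protein that drives fusion of synaptic vesicles, ran from 8.74 through 8.96 to 9.35 in the dosed mice, and from 8.37 through 8.47 to 8.59 in Control, a difference of 0.49 ± 0.06 (adjusted p = 6.22e-08). Nos1, the nitric oxide synthase of inhibitory motor neurons, ran from 8.65 through 8.82 to 9.17 in the dosed mice, and from 8.32 through 8.50 to 8.64 in Control, a difference of 0.36 ± 0.05 (adjusted p = 1.47e-06). Neither gene's groups overlapped. For Nos1 the gap was very small, between 8.6446 on the highest Control array and 8.64696 on the lowest dosed array. Cartpt, the precursor of the neuropeptide CART, differed by 0.50 ± 0.10 (adjusted p = 0.000267), with a wide spread in the dosed mice (8.30 to 9.80, against 8.27 to 8.83 in Control). Syt1, the calcium sensor of vesicle release, differed by 0.23 ± 0.06 (adjusted p = 0.00632). Syt4, another synaptotagmin, had a difference of 0.17 ± 0.10 that did not pass (adjusted p = 0.24), and it passed without the 8 arrays of low SD (0.34, adjusted p = 0.000697).

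Of the cholinergic pair, Slc18a3 rose and Chat did not pass the test. Slc18a3, the vesicular acetylcholine transporter, differed by 0.29 ± 0.09 (adjusted p = 0.0123). Chat, the enzyme that makes acetylcholine, ran from 6.62 through 6.91 to 7.29 in the dosed mice, and from 6.61 through 6.90 to 7.57 in Control, a difference of -0.01 ± 0.08 (95% interval -0.17 to 0.15, adjusted p = 0.955). The groups overlapped throughout. The 4 Control arrays of low SD held the 4 highest Control values of Chat. Without the 8 low-SD arrays the difference was 0.17 (adjusted p = 0.00407), in a fit where most probe sets passed.

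Of the 3 RNA-binding proteins and transcription factors of neurons, 1 rose. Elavl4 (HuD), an RNA-binding protein of neurons, ran from 7.53 through 7.68 to 8.17 in the dosed mice, and from 7.29 through 7.40 to 7.58 in Control, a difference of 0.29 ± 0.05 (adjusted p = 3.14e-05), and 25 of 27 dosed arrays lay above every Control array. Its relative Elavl3 (HuC) differed by 0.11 ± 0.06 and did not pass (95% interval -0.01 to 0.22, adjusted p = 0.206). It passed without the 8 arrays of low SD (0.15, adjusted p = 0.0444), with array SD as a covariate (0.14, adjusted p = 0.0195) and with quantile normalization (0.12, adjusted p = 0.0474). Phox2a, a homeobox factor of autonomic neurons, differed by 0.01 ± 0.05 (95% interval -0.09 to 0.10, adjusted p = 0.926).

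L1cam, an adhesion molecule of growing axons, was the neuronal gene that fell. It ran from 8.60 through 8.89 to 9.13 in the dosed mice, and from 9.21 through 9.72 to 10.06 in Control, and it fell by 0.75 on the log2 scale (SE 0.07, adjusted p = 1.23e-09). The groups did not overlap. Here the 4 Control arrays of low SD, at 9.21 to 9.40, lay closest to the dosed mice, and without the 8 low-SD arrays the difference was -0.98.

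Of the GDNF family receptors, the signalling receptor and 1 coreceptor rose. Ret, the receptor tyrosine kinase, ran from 8.58 through 8.87 to 9.48 in the dosed mice, and from 8.12 through 8.43 to 8.50 in Control, a difference of 0.57 ± 0.08 (adjusted p = 1.39e-06). Gfra1, the coreceptor that binds GDNF, ran from 8.79 through 9.00 to 9.21 in the dosed mice, and from 8.62 through 8.72 to 8.96 in Control, a difference of 0.26 ± 0.05 (adjusted p = 5.77e-05). Gfra2, which binds neurturin, differed by 0.06 ± 0.06 (95% interval -0.05 to 0.18, adjusted p = 0.49), and Gfra3, which binds artemin, by 0.04 ± 0.08 (95% interval -0.12 to 0.20, adjusted p = 0.751). Among 7 measured genes for ligands of these receptors and of Ednrb, related growth factors and a processing enzyme, 2 rose. Of all probe sets 21.9% were called in either direction and 12.7% as higher, and no test was made over so few genes. The 2 were Ece1, the endothelin-converting enzyme (0.48, adjusted p = 0.00518), and Nrtn, which encodes neurturin (0.24, adjusted p = 0.0202). Gdnf had a difference of 0.01 (adjusted p = 0.948) and Edn3 of -0.06 (adjusted p = 0.563).

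The 3 glial genes differed in the size of their change. Gfap, the intermediate filament of astrocytes and of some enteric glia, ran from 7.57 through 8.23 to 9.05 in the dosed mice, and from 7.07 through 7.29 to 7.60 in Control, a difference of 0.97 ± 0.13 (adjusted p = 7.37e-07). Of 27 dosed arrays 26 lay above every Control array. S100b, a calcium-binding protein of glia, ran from 8.12 through 8.27 to 8.39 in the dosed mice, and from 7.85 through 8.11 to 8.34 in Control, a difference of 0.16 ± 0.05 (adjusted p = 0.0073), and 4 of 27 dosed arrays lay above every Control array. Sox10, the transcription factor of neural crest and glia, ran from 8.41 through 8.60 to 8.94 in the dosed mice, and from 8.29 through 8.45 to 9.01 in Control, and its difference of 0.12 ± 0.07 did not pass (adjusted p = 0.221). Its highest Control value was Control replicate 4, and without that array the difference was 0.19 (adjusted p = 0.0189). Without the 8 arrays of low SD it was 0.22 (adjusted p = 0.00401).

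The change of Gfap was set beside that of S100b as the difference of their log2 signals within each array, 1 of 4 gene pairs treated so, after their values had been seen, and these differences are given with no test. Gfap minus S100b averaged -0.001 ± 0.40 in the dosed mice and -0.80 ± 0.12 in Control (SD, 27 and 9 arrays), and every dosed array lay above the Control mean. Relative to Control it was shifted by 0.86 in siTNF, 0.88 in siTNF-OMe, 0.75 in siTNF-OMe-P and 0.75 in scrambled mice. Without the 8 arrays of low SD the shifts were 0.77, 0.83, 0.62 and 0.75 in the same groups. Snap25 minus S100b was shifted by 0.33 in the dosed mice over Control, and by 0.24 without the 8 arrays. Snap25 minus Elavl4, both neuronal, was shifted by 0.21, and by 0.08 without the 8 arrays. Snap25 minus Des, a muscle filament gene, was shifted by -0.31, and by -0.08 without them.

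The neuronal and glial genes were then set against each other. The mean of the neuronal genes per array, relative to the Control mean, was 0.33 ± 0.12 in the dosed mice and 0.00 ± 0.12 in Control (SD, 27 and 9 arrays), and that of the glial genes 0.42 ± 0.15 in the dosed mice and 0.00 ± 0.16 in Control. Without Gfap the glial mean was 0.15 ± 0.09 in the dosed mice and 0.00 ± 0.17 in Control. The neuronal minus the glial mean was -0.09 ± 0.10 in the dosed mice and 0.00 ± 0.21 in Control. Without Gfap among the glial genes it was 0.19 ± 0.10 in the dosed mice and 0.00 ± 0.23 in Control. Without the 8 arrays of low SD, 23 dosed and 5 Control arrays were left. There it was -0.09 ± 0.11 in the dosed mice and 0.14 ± 0.11 in Control with Gfap, and 0.19 ± 0.10 in the dosed mice and 0.16 ± 0.11 in Control without it. With all arrays the sign of this contrast differed with and without Gfap, and no test was made over the lists.

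All 4 genes that neurons share with glia, precursors or muscle rose. Ednrb, the endothelin receptor B, ran from 9.27 through 9.70 to 10.58 in the dosed mice, and from 8.80 through 8.97 to 9.00 in Control, a difference of 0.77 ± 0.10 (adjusted p = 2.29e-07) with no overlap. Gap43, a protein of growth cones, ran from 9.83 through 10.21 to 10.59 in the dosed mice, and from 9.48 through 9.70 to 9.88 in Control, a difference of 0.45 ± 0.07 (adjusted p = 1.12e-05). Hand2, a transcription factor of enteric neurons and muscle, differed by 0.38 ± 0.07 (adjusted p = 9.85e-05), and the neural cell adhesion molecule Ncam1 by 0.21 ± 0.05 (adjusted p = 0.00111).

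Each siRNA group was next set against the same 9 Control arrays, which the comparisons share. In siTNF mice 16 genes rose and L1cam fell, where 13.8% of all probe sets were called, 9.09% as higher and 4.71% as lower. In siTNF-OMe mice 17 rose and L1cam fell, where 14.8% of all probe sets were called, 9.01% as higher and 5.81% as lower. In siTNF-OMe-P mice 18 rose and L1cam fell, beside 9.35% of all probe sets higher and 6.58% lower (15.9% in all). In scrambled mice 17 rose and L1cam fell, beside 7.27% higher and 4.45% lower (11.7% in all). A rise was called in all 4 groups for 14 genes, namely Uchl1, Tubb3, Gfap, Prph, Ednrb, Ret, Cartpt, Snap25, Nefm, Gap43, Hand2, Nos1, Elavl4 and Gfra1. Uchl1 differed by 1.04 in siTNF, 1.11 in siTNF-OMe, 1.13 in siTNF-OMe-P and 1.07 in scrambled mice. Gfap differed by 0.99 in siTNF, 1.07 in siTNF-OMe, 0.96 in siTNF-OMe-P and 0.88 in scrambled mice. Calls in 1 to 3 groups went to 7 genes, Nefl, Stmn2, Slc18a3, Syt1, Ncam1, Stmn3 and S100b. In no group was a call made for Chat, Phox2a, Gfra2, Gfra3, Elavl3, Sox10 or Syt4. The moderated F test over the 5 groups called 17 genes, against 13.7% of all probe sets.

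**Figure D3:**
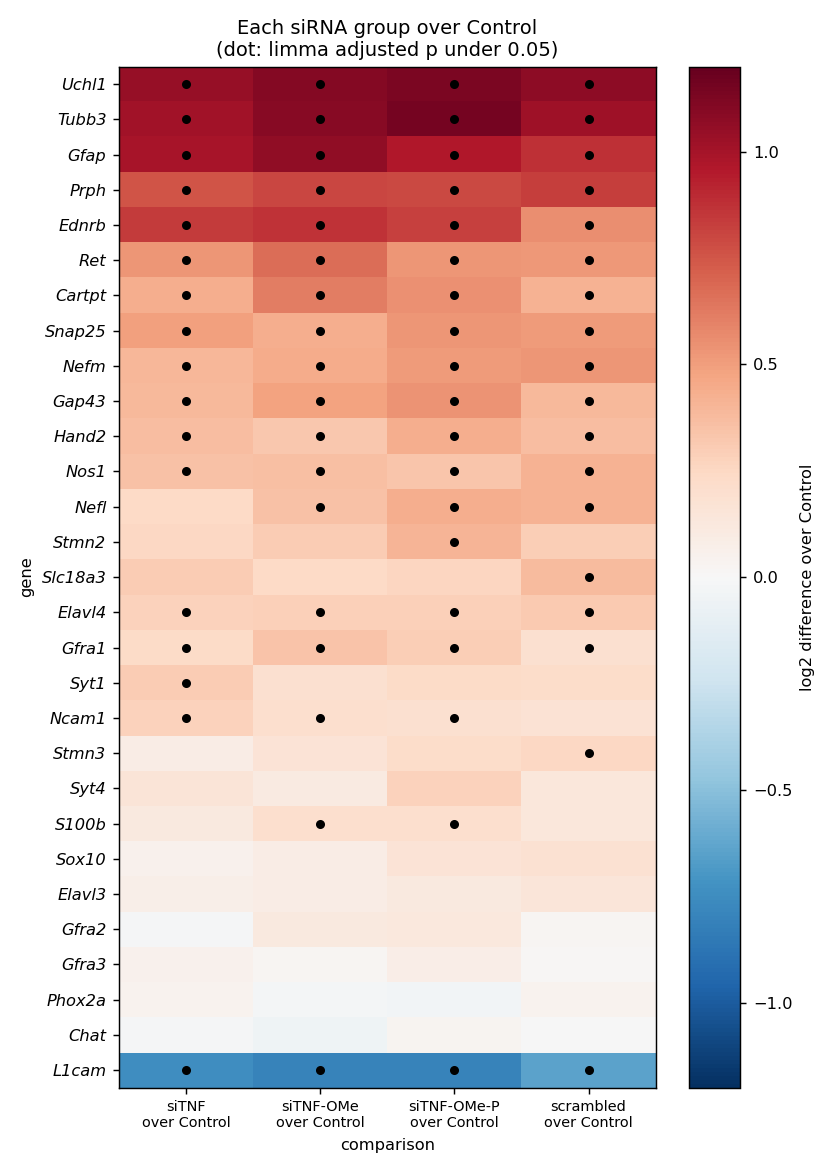
Log2 difference over Control of each of the 29 genes (vertical axis) in siTNF, siTNF-OMe, siTNF-OMe-P and scrambled mice (horizontal axis), as colour, red for higher and blue for lower, with a dot where the limma adjusted p was under 0.05. The 4 columns share the 9 Control arrays; 14 genes are red with a dot in all 4 and L1cam is blue with a dot in all 4.

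Groups that separated from Control without overlap were counted per comparison. Above all Control arrays lay 7 genes in siTNF mice (2.29% of all probe sets), 10 in siTNF-OMe (4.56%), 8 in siTNF-OMe-P (2.5%) and 8 in scrambled mice (1.82%). L1cam lay below in each of the groups, where 0.957% of all probe sets did in siTNF, 1.8% in siTNF-OMe, 1.01% in siTNF-OMe-P and 0.863% in scrambled mice. In scrambled mice 4 calls rested on replicate 2: without that array Stmn3, Slc18a3, Cartpt and Gfra1 no longer passed in scrambled over Control, and 13 genes rose and L1cam fell. The share of all probe sets called without that array is not given here, so this count is not set against it.

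Between the siRNA groups no difference was found for any of the 29 genes. In each of the 6 pairwise comparisons 0 genes and 0% of all probe sets passed in limma, and at an unadjusted p of 0.05 between 0 and 2 of the genes and between 74 and 1002 of the 28853 probe sets did. The largest difference was that of Ednrb, whose median was 9.70 in siTNF, 9.85 in siTNF-OMe, 9.76 in siTNF-OMe-P and 9.36 in scrambled mice. Its difference over scrambled was 0.28 for siTNF (95% interval -0.01 to 0.57), 0.31 for siTNF-OMe (0.03 to 0.60) and 0.27 for siTNF-OMe-P (-0.001 to 0.54), with an adjusted p of 1.00 each time. The 95% intervals of the 29 genes reached from -0.52 to 0.60 in the comparisons with scrambled siRNA.

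The O-methyl and O-methyl-propanediol forms differ from the unmodified siRNA in their nucleotides, and the labels give no doses. Over the 29 genes siTNF-OMe minus siTNF ran from -0.11 to 0.18, with Cartpt highest (95% interval -0.13 to 0.49). Over the same genes siTNF-OMe-P minus siTNF ran from -0.08 to 0.20, with Nefl highest (95% interval 0.01 to 0.39, adjusted p = 0.974). The difference between siTNF-OMe-P and siTNF-OMe ran from -0.14 to 0.17, with Syt4 highest (95% interval -0.11 to 0.44). A p that misses the threshold does not show that the forms act alike.

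Within the 27 dosed arrays the genes were also related to the animals' colon length and MPO activity. With group and both batches in the model, 0 of the 29 genes and 0% of all probe sets had a slope that passed in limma for either measure. At an unadjusted p of 0.05, 1 gene each passed, Gfra1 for colon length and Gfra2 for log2 MPO activity, beside 700 and 984 probe sets. The largest slope on colon length was that of Ednrb, -0.29 log2 per unit of length, whose scale is in doubt as said above (95% interval -0.61 to 0.02).

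Other genes of enteric neurons that were measured moved in both directions. Their differences, and those of the marker genes below, are given with all arrays only, those of low SD included. Of 29 measured genes outside the 29 above, 9 rose and 2 fell in the dosed mice over Control, where 21.9% of all probe sets were called, with a median difference of 0.06. Penk, the enkephalin precursor, ran from 10.36 through 10.75 to 11.69 in the dosed mice, and from 8.62 through 9.68 to 10.00 in Control, a difference of 1.35 (adjusted p = 1.12e-08). Vip, the vasoactive intestinal peptide of inhibitory and secretomotor neurons, ran from 9.68 through 9.97 to 10.75 in the dosed mice, and from 8.09 through 9.15 to 9.57 in Control, a difference of 1.06 (adjusted p = 6.38e-07). Htr4, a serotonin receptor, fell by 1.07 on the log2 scale (adjusted p = 1.66e-14), and Ddc, an enzyme of monoamine synthesis, fell by 0.44 (adjusted p = 0.00143). Of 13 measured genes of enteric glia and Schwann cells, 3 rose, Cnp (0.37, adjusted p = 0.00572), Cdh19 (0.37, adjusted p = 0.00203) and Fabp7 (0.19, adjusted p = 0.0301), with a median of 0.09. That share is near the 21.9% of all probe sets that were called in either direction, while 12.7% of all probe sets were called as higher. No test was made over these few genes.

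Markers of other cells of the colon wall moved with these genes, and their part in the results was not tested. Over all probe sets 21.9% were called in this comparison, 12.7% as higher. All 10 smooth muscle markers rose, with a median difference of 0.54. Their list mean per array ran from 0.29 to 0.65 in the dosed mice and from -0.58 to 0.42 in Control. On the 4 Control arrays of low SD it was -0.03, -0.14, -0.15 and -0.58, and on the other 5 it ran from 0.02 to 0.42. The muscle filament gene Des rose by 0.80 (adjusted p = 4.33e-08) and Cnn1, calponin, by 0.70 (adjusted p = 6.09e-09). Of 9 enteroendocrine markers, which share secretory genes with neurons, 7 rose, with list means of 0.38 to 0.91 in the dosed mice and -0.27 to 0.25 in Control. Gcg, the proglucagon gene, rose by 1.66, the highest of the list, and Chga, chromogranin A, by 0.84 (adjusted p = 6.98e-09).

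The other cell types were divided, beside 21.9% of all probe sets called. All 3 endothelial markers rose, with Cdh5 at 0.90 and Pecam1 at 0.74, and their list mean ran from 0.32 to 1.07 in the dosed mice and from -0.33 to 0.24 in Control. Of 5 leukocyte markers 3 rose and 1, Cd79a, fell, and their list mean ran from 0.21 to 0.87 in the dosed mice and from -0.09 to 0.25 in Control. Cd68, a macrophage marker, rose by 2.00 and Ptprc, the pan-leukocyte marker CD45, by 0.68. Of 5 epithelial markers only Krt20 rose (0.37), and their list means overlapped (-0.17 to 0.29 in the dosed mice and -0.30 to 0.22 in Control). Of 5 tuft cell markers only Dclk1 rose (0.27). Ano1, a channel of the interstitial cells of Cajal and of other cells, fell by 1.34 (adjusted p = 2.15e-08), while Kit had a difference of -0.16 that did not pass (adjusted p = 0.276).

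**Figure D4:**
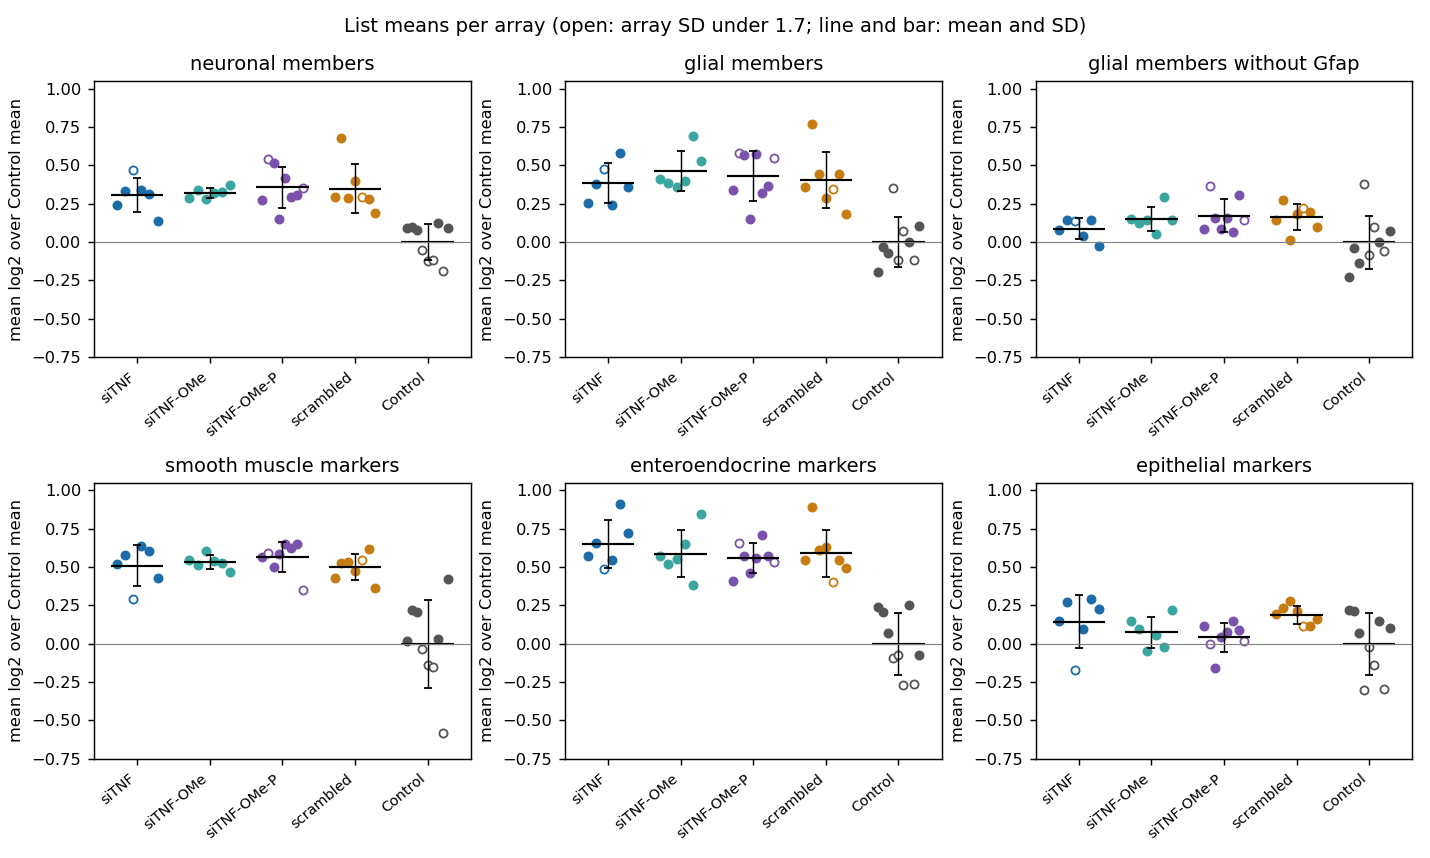
Mean over the genes of 6 lists on each array, in log2 relative to the Control mean, for siTNF, siTNF-OMe, siTNF-OMe-P, scrambled and Control mice, with the mean and SD of each group and open points for arrays with an SD under 1.7. The glial means with and without Gfap, the smooth muscle mean and the epithelial mean overlap between dosed and Control arrays. The group means of all 6 lists are above that of Control in all 4 dosed groups, with those of the epithelial list between 0.04 and 0.19.

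Across the 36 arrays, 4 pairs of genes were related after group and batches had been taken out, and p-values were adjusted over the 4. Snap25 and Elavl4, both neuronal, had r = 0.56 (permutation p = 0.00038, adjusted 0.00152) and rho = 0.39 (permutation p = 0.0182, adjusted 0.0729). Without the 2 arrays farthest from the median r was 0.35, and within the hybridization batches it was 0.75 and 0.39, and within the amplification batches 0.76, 0.61 and 0.24. With array SD taken out as well, r was 0.65 and rho was 0.54 (adjusted permutation p = 0.00248 for rho). Gfap and S100b, both glial, had r = -0.06 (permutation p = 0.723, adjusted 0.918). Snap25 with S100b had r = -0.02 (adjusted permutation p = 0.918), and Snap25 with Des had r = 0.09 (adjusted permutation p = 0.918).

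The direction of the 22 called differences between the dosed mice and Control was the same within each batch taken alone. Each batch is a part of the arrays that gave these calls, so the shared direction is not an independent check. Within the 2 hybridization batches 11 and 17 of the 22 were called, and within the 3 amplification batches 11, 20 and 1. Of all probe sets 10.5% and 13.6% were called within the hybridization batches, and 33.8%, 31.5% and 1.62% within the amplification batches. The labels do not say whether the animals of a group shared a cage or a day of dosing, so the p-values measure the spread between these animals only.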

How the data were processed

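Total RNA of mouse colon was amplified as whole transcriptome from 25 ng and labelled with biotin, per the labels' protocols, in batches (3 for amplification, 2 for hybridization). For 28853 probe sets the authors deposited log2 signals made with Partek and RMA per the submitters' processing notes, without versions. No source used here states batch removal, centring or scaling between arrays; array medians ran from 7.98 to 8.25. Genes were named from the platform annotation, in which 21789 probe sets carry 1 gene. No source gives signal over background, and the number of arrays limits the precision.

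The log2 values were fitted with limma 3.58.1 in R 4.3.3 on group, amplification batch and hybridization batch over all 36 arrays, with moderated variances that follow a trend with the mean. The two-sided p-values were adjusted by Benjamini-Hochberg over all probe sets, with a threshold of 0.05. The siRNA-dosed comparison is the mean of the 4 dosed groups minus Control. Slopes used the 27 dosed arrays. The fit was tested on simulated data with noise drawn independently for each value. A log2 change of 0.5 was recovered in 77.0% of cases, and 5.18% of calls were false. The simulated arrays did not differ in SD as the real ones did, so the simulation does not show how the fit handles that. The 100000 permutations for correlations and motif searches were run in Python 3.11.15 with SciPy 1.17.1, NumPy 2.4.6 and pandas 2.3.3, and figures were drawn with matplotlib 3.10.9.

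The members, the gene lists, the low-SD limit of 1.7 and the alternatives were chosen with earlier results of these data known. All 29 members are named, and from each other list up to 2 risen and 2 fallen called genes of largest difference, and Des. Tnf was added as a check of the labels, and Gdnf, Edn3, Kit and Fabp7 were named after their values were seen. Alternatives were no batch terms, the replicate number as a block, quantile normalization, the 40% dimmest probe sets left out, no trend, the 8 low-SD arrays left out, array SD as a covariate, each hybridization batch alone, the mean of all single-gene probe sets, and each array left out. Median centring, each amplification batch alone, and pair differences and list means without the 8 low-SD arrays were added after the values were seen.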

Additional observations from a re-analysis of the deposited data

Results flagged for a closer look

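Of 145 combinations of gene and group, 16 held an array whose gap to the nearest other array was large for the range of its group by Dixon's test at 95%, where chance gives about 7.25. Scrambled replicate 2 was the high array for 7 genes, with log2 signals of 10.3 for Prph (other scrambled arrays 9.52 to 9.80), 8.17 for Elavl4, 11.4 for Tubb3, 8.84 for Syt1, 8.49 for Nefm, 9.48 for Ret and 10.5 for Gap43. In siTNF mice replicate 6 was low for Phox2a (6.66) and Hand2 (8.05). In siTNF-OMe mice replicate 1 was low for Ret (8.77), and replicate 5 was high for Gfra3 (8.05) and Sox10 (8.82). In siTNF-OMe-P mice replicate 2 was high for Phox2a (7.11) and Nefm (8.30). In Control mice replicate 4, which had the lowest array SD (1.55), was high for Stmn3 (8.85) and Sox10 (9.01).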

How the results depend on the processing

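Leaving out 1 array at a time gave 21 to 23 calls among the 29 genes for siRNA-dosed over Control, 14 to 18 for siTNF, 16 to 19 for siTNF-OMe, 18 to 22 for siTNF-OMe-P, 14 to 20 for scrambled over Control and 16 to 19 for the F test, with a neuronal median of 0.29 to 0.34 and a glial median of 0.13 to 0.20; the comparisons among siRNA groups and both slopes stayed at 0. Counts moved by over 1.5 times only within single batches, which hold fewer arrays. For siRNA-dosed over Control the share of all probe sets called also differed between batches, as given above. For the other comparisons, and with 1 array left out, that share is not given here. The counts therefore do not show losses or gains particular to these genes. Hybridization batch 1 alone gave 11 calls for siRNA-dosed, 2 for siTNF, 3 for siTNF-OMe, 6 for siTNF-OMe-P, 5 for scrambled over Control and 2 for the F test. Hybridization batch 2 alone gave 9 for siTNF, 7 for scrambled and 11 for the F test. Amplification batch 1 alone gave 12 for siRNA-dosed, 2 for siTNF, 2 for siTNF-OMe, 11 for siTNF-OMe-P, 2 for scrambled and 2 for the F test, and a glial median of 0.34. Amplification batch 2 alone gave 11 for siTNF-OMe and 10 for the F test, and amplification batch 3 alone 1 for siRNA-dosed and 0 for each siRNA group over Control and for the F test. Some genes that did not pass changed sign, and the cause was not tested: Chat (0.013 with the replicate block, 0.035 with quantile normalization, 0.080 with array SD as a covariate, 0.023 in hybridization batch 1, 0.00091 with median centring, 0.26 in amplification batch 1, and 0.17 without the low-SD arrays, where it passed), Phox2a (-0.020 without the low-SD arrays, -0.019 in hybridization batch 1, -0.034 in amplification batch 3), Gfra2 (-0.0091 without the low-SD arrays, -0.066 in amplification batch 3) and Gfra3 (-0.086 in amplification batch 2). When 1 array was left out, Chat, Phox2a and Gfra3 ran from negative to positive. With array SD taken out as well, the correlation of Snap25 with Des was -0.13 and that of Snap25 with S100b 0.068. Stmn3 did not pass with quantile normalization (adjusted p = 0.0683), with the mean of its probe sets (0.156) or with the replicate block (0.0783), nor Ncam1 with quantile normalization (0.105). Replicate numbers did not pair the arrays (same-number pairs had a median r of 0.12, and 5 of 36 arrays correlated best with their own number); with a replicate block replacing both batch terms, 21 genes were called for siRNA-dosed over Control. Depth in reads does not apply to arrays.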
